A study of Homo sapiens with 4 samples.

Results

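The 8 genes examined here encode proteins of the AP-1 transcription factor family, namely FOS, FOSB, FOSL1 and FOSL2 (the FOS group), JUN, JUNB and JUND (the JUN group) and ATF3. They are 8 of 19974 protein-coding genes on chromosomes 1 to 22 and X. They were taken by name as a family and were chosen by earlier results on the same BAF45D peaks, so their peaks are given as a description, with no test. For each gene, all called peaks at either gene end (within 1 kb), inside the gene body and out to 50 kb were collected from the 4 peak lists.

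The peaks come from CUT&Tag of BAF45D, the DPF2 gene product and a member of BAF chromatin remodelling complexes, with 2 libraries of H9 embryonic stem cells (ESC1 and ESC2) and 2 of spinal cord neural stem cells made from H9 (NSC1 and NSC2). H9 is an established line, so both cell types share 1 genetic background, and each assay took 100000 cells. In CUT&Tag an antibody guides a transposase to DNA beside the target protein, and the fragments it cuts are sequenced. The embryonic stem cells were kept on Matrigel in mTeSRTM1 medium. The neural stem cells were induced for 10 days in N2B27 medium with LDN-193189 (100 nM), SB431542 (10 μM), CHIR-99021 (4 μM), FGF2 and FGF8 (100 ng/ml each) and DAPT (10 μM). A maintenance medium with SB-431542 (2 μM), CHIR-99021 (3 μM) and Hh-Ag 1.5 (200 nM) came next. The labels' protocols name the induction medium again for 5 subpassages, and then N2B27 with FGF2 and EGF (20 ng/ml each). FGF2 and EGF are growth factors that signal through the MAP kinases. Y-27632, a ROCK inhibitor, was added at passages. The labels do not say whether the libraries of a cell type came from separate cultures, so differences between them may be technical.

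AP-1 is a pair of basic leucine zipper proteins, most often a FOS protein with a JUN protein, that binds the site TGANTCA in promoters and enhancers. FOS, FOSB, JUN, JUNB and ATF3 are immediate early or stress-responsive genes, whose transcription rises within minutes of a growth factor or stress signal carried by MAP kinases, while JUND is transcribed more steadily. JUN proteins can pair with each other, whereas FOS proteins need a JUN partner to bind DNA. AP-1 proteins are known to work together with BAF complexes at enhancers.

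The peak lists differ in length and depth. On the chromosomes used they held 4204 and 12533 peaks in ESC1 and ESC2, and 29783 and 24669 in NSC1 and NSC2, from 18953543 to 20734829 tags in ESC and 5377831 to 5566407 in NSC. The strength of a peak is given as the authors' −log10 q, where q is the adjusted p-value of MACS2 relative to reads around the peak in that library. Strengths have no common scale between lists, so each is also given as the percent of peaks of its own list that are weaker. A gene or region is called NSC-only when both NSC libraries and no ESC library had a peak, and ESC-only in the converse case. Where a gene has no peak, its signal was below the calling threshold, and no library without a targeted antibody was used here. An exact permutation test of 2 libraries against 2 cannot give a two-sided p below 0.333.

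BAF45D peaks lay at the RefSeq starts used here of JUN in all 4 libraries, and of FOSL2, JUND and FOS in both NSC libraries alone. The 250 bases before those starts are printed here because the peaks cover them in part or whole. FOSB is shown beside them as a member with no peak at its ends. ATF3 also had a peak in all 4 libraries, inside the gene and away from the starts used, as described below. Sequences are from the RefSeq promoter table of GRCh38.p14 and run 5′ to 3′ along the gene, up to the base before the start. Capitals mark the GC box (GGGCGG or CCGCCC), the CCAAT box (CCAAT or ATTGG), the cyclic AMP response element TGACGTCA or its part TGACGT (or ACGTCA on the other strand), and TGACATCA.
JUN, chr1:58784048-58784297, minus strand: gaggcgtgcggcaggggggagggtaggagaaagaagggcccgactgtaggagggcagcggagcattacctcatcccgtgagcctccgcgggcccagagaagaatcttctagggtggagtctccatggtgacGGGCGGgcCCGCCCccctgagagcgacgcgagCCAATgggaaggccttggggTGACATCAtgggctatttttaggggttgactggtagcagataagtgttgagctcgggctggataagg
FOSL2, chr2:28392608-28392857, plus strand: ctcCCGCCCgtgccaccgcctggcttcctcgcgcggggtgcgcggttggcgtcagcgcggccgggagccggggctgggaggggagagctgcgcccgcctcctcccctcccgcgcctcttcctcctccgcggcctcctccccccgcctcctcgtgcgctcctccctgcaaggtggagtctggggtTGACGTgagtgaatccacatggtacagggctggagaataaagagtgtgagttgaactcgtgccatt
JUND, chr19:18281623-18281872, minus strand: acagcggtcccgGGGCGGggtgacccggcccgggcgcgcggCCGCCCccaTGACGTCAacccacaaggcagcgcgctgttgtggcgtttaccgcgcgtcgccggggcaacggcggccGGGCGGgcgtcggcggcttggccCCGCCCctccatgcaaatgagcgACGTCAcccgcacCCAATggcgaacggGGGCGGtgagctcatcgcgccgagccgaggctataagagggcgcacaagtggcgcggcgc
FOS, chr14:75278578-75278827, plus strand: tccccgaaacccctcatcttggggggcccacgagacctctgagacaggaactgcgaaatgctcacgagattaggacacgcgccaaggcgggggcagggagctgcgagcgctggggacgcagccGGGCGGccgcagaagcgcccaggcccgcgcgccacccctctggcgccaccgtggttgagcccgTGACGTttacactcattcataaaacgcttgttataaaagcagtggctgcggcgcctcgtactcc
FOSB, chr19:45467746-45467995, plus strand: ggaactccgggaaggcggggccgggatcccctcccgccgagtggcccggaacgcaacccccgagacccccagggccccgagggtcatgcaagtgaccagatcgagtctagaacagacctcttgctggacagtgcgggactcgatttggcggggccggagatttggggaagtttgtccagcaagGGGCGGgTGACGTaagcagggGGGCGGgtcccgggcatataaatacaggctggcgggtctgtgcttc

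The JUN peak covered all 250 printed bases in each of the 4 libraries. The JUND peak covered all 250 in both NSC libraries. The FOSL2 peak covered 185 in NSC1 and 250 in NSC2. At FOS, the peaks covered 99 bases in NSC1 and 113 in NSC2, since a gap between its pair of peaks fell inside the window. At FOSB no peak of any library reached the window.

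JUN encodes the founding member of the JUN group and can bind DNA with itself or with any FOS protein. It lies at chr1:58780791-58784047 on the minus strand. Its start was covered by 1 peak in each library, with −log10 q of 10.2 and 25.1 in ESC1 and ESC2, and 38.4 in both NSC1 and NSC2. The merged region ran over chr1:58783811-58784477. These peaks were stronger than 85.4%, 95.9%, 98.9% and 99.0% of the peaks of their own lists. Among genes with a gene-end peak, JUN stood above 84.5% and 93.5% in ESC1 and ESC2, and 97.7% and 98.3% in NSC1 and NSC2. The summits lay 102, 83, 40 and 190 bp upstream of the start, so both ESC summits lay between those of NSC1 and NSC2. The non-coding gene JUN-DT begins within 1 kb of the same region.

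The other peaks within 50 kb of JUN were weaker than the one at its start, and each was in 1 NSC library. They lay 42.1 and 35.2 kb downstream of the start in NSC2 (−log10 q 5.81 and 1.75, at chr1:58741844-58742043 and chr1:58748770-58748969) and 38.2 kb downstream in NSC1 (5.07, at chr1:58745705-58745913). All are within or beside the lncRNA gene LOC112268263.

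FOSL2 encodes FRA-2, a FOS protein that lacks the strong activation domain of FOS. The gene lies at chr2:28392858-28417317 on the plus strand. A single region at its start, chr2:28392426-28393012, had a peak in NSC1 (−log10 q 23.5, stronger than 95.4% of its list) and in NSC2 (15.2, 90.0%), and neither ESC library had one. The summits lay 42 and 34 bp upstream of the start, and the NSC2 interval held a further, weaker summit 326 bp upstream (4.83). No library had any other peak within 50 kb of FOSL2, which makes it the most isolated of the 8 genes. In NSC1, 61.0% of protein-coding genes had more than this 1 peak in the same window, and in NSC2 53.9% did. The region also lies within 1 kb of the antisense lncRNA gene FOSL2-AS1.

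JUND encodes the JUN protein that is present in most resting cells. The gene lies at chr19:18279694-18281622 on the minus strand. A region over its start, chr19:18281528-18282119, had a peak in NSC1 (−log10 q 16.9) and NSC2 (16.6), stronger than 90.8% and 91.6% of their lists, and none in ESC. The summits lay 234 and 214 bp upstream of the start. MIR3188 and LOC124904652 are annotated within 1 kb of the region. In the flank, a region 41.6 kb upstream at an end of LSM4, which encodes an RNA decay and splicing factor, had peaks in ESC2 (4.00), NSC1 (12.2) and NSC2 (13.9), at chr19:18323013-18323400. A weaker region 47.0 kb upstream, chr19:18328471-18328802, had peaks in ESC2 (3.93) and NSC1 (4.44).

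FOS encodes the FOS protein itself, the classic product of an immediate early gene. It lies at chr14:75278828-75282230 on the plus strand. Its start had a pair of NSC-only regions rather than 1. The upstream one, chr14:75278154-75278666, had −log10 q of 19.4 in NSC1 and 11.5 in NSC2, with summits 340 and 324 bp before the start. The other, chr14:75278759-75279014, lay over the start itself and was weaker, at 6.38 and 3.87, with summits 35 and 70 bp after it. In both NSC libraries the upstream peak was thus the stronger of the pair, above 92.97% and 83.2% of the lists, against 59.1% and 32.7%. Neither ESC library had a peak in FOS or at its ends.

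Away from its start, FOS had sites that ESC2 shared. A region 19.6 kb upstream, chr14:75258622-75259491, had peaks in ESC2 (14.9), NSC1 (20.5) and NSC2 (14.9), stronger than 90.2%, 93.8% and 89.5% of their lists. A region 15.6 kb downstream of the start, chr14:75293838-75294561, beside the lncRNA gene LINC01220, had peaks in ESC2 (3.50), NSC1 (13.3) and NSC2 (11.8). Neither overlaps a protein-coding gene, and FOS is the nearest one to both. The other flank peaks of FOS were weaker in their lists than those at the 19.6 kb site: an NSC-only region 40.9 kb upstream (6.07 and 3.65, chr14:75237546-75238095), 1 peak 9.47 kb upstream in ESC2 (2.44, chr14:75269255-75269454), and peaks of NSC1 alone 16.4 and 31.9 kb downstream (5.26 and 2.22, chr14:75295061-75295366 and chr14:75310587-75310786). ESC1 had no peak within 50 kb of FOS.

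**Figure D1:**
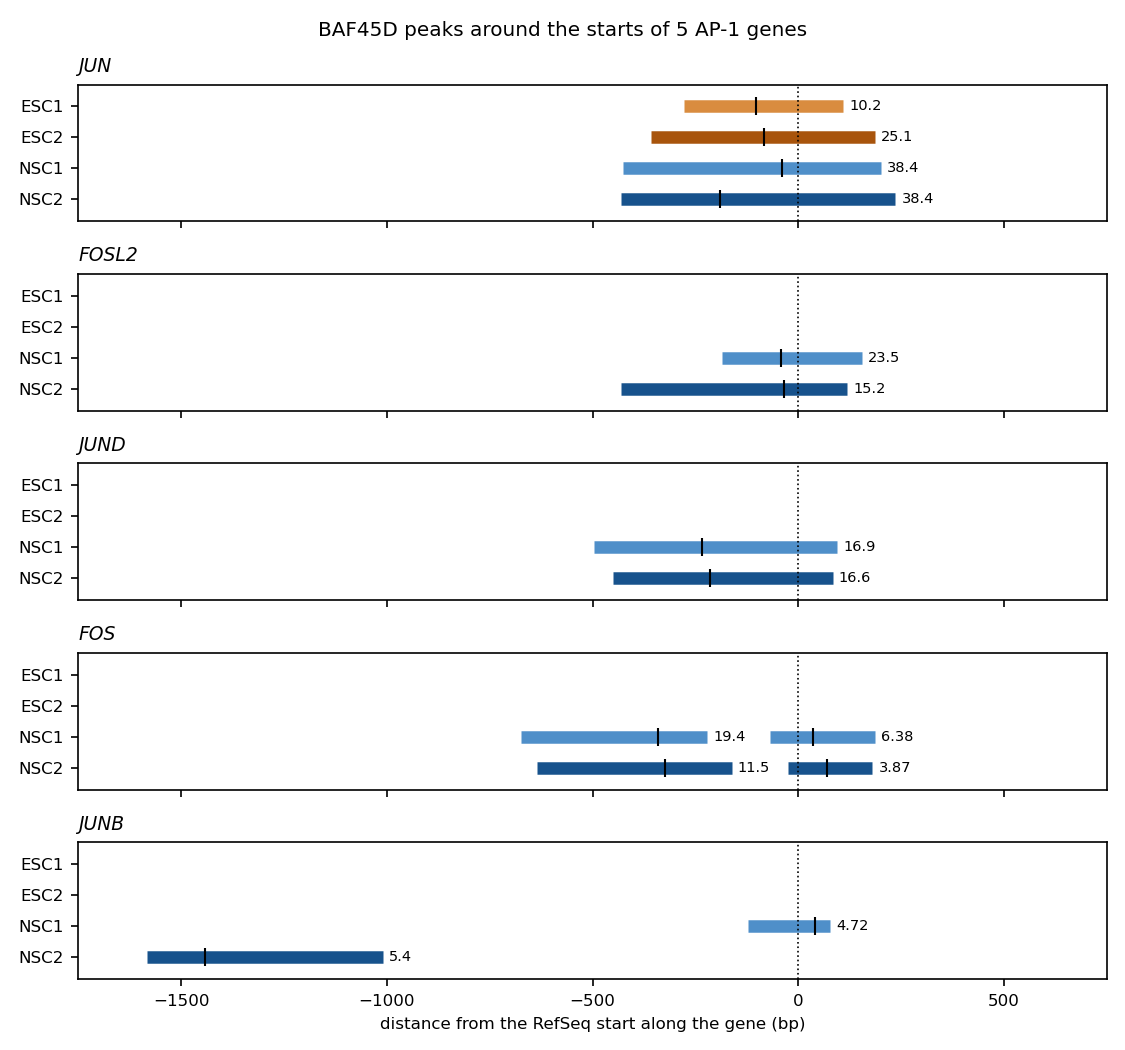
Peaks around the RefSeq start of 5 AP-1 genes, by distance from it in bp; bars are called peaks by library, ticks are the strongest summits, and the number beside each bar is its −log10 q. JUN has a peak in all 4 libraries, FOSL2, JUND and FOS in NSC1 and NSC2 alone, and JUNB has peaks of NSC1 and NSC2 that do not overlap.

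JUNB encodes a JUN protein that often restrains JUN. It lies at chr19:12791486-12793315 on the plus strand. Its start had a peak in NSC1 alone, chr19:12791364-12791563, with −log10 q of 4.72, stronger than 43.1% of that list, and this peak also overlaps the neighbour HOOK2. In NSC2 the nearest peak, chr19:12789903-12790476, had 5.40 and ended 10 bp outside the 1 kb window, with its summit 1442 bp before the start. The NSC peaks at JUNB thus do not overlap, and neither is among the stronger ones of its list. ESC1 had a peak 6.20 kb upstream inside HOOK2 (2.53, chr19:12785230-12785480). ESC2 had a peak 5.25 kb downstream at an end of PRDX2, a peroxiredoxin gene (7.90, chr19:12796615-12796900).

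One of the ESC-only regions of the whole set lay near the edge of the JUNB window, 49.2 kb downstream of the start and inside MAST1, a microtubule-associated kinase gene. This region, chr19:12840481-12841097, had −log10 q of 12.7 in ESC1 and 20.4 in ESC2, stronger than 89.0% and 94.2% of those lists. NSC1 had a weak peak (3.20) beside it, at chr19:12841229-12841428, that did not overlap it.

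ATF3 encodes a stress-induced factor that pairs with JUN proteins and is often a repressor. It lies at chr1:212565407-212620777 on the plus strand. The RefSeq promoter table gives it 2 starts, at 212565407 and 212615018, and only these were used. Its strongest site lay inside the gene, away from both of these starts. Whether another start of ATF3 lies at that site was not examined. This region, chr1:212608370-212609093, had a peak in every library, with −log10 q of 2.91 and 22.2 in ESC1 and ESC2, and 39.9 and 43.6 in NSC1 and NSC2. In ESC2, NSC1 and NSC2 it was stronger than 94.9%, 99.0% and 99.3% of the list, while in ESC1 it was stronger than 33.7%. The strongest summits lay between 6312 and 6404 bp upstream of the second start, and the ESC1 summit was the farthest from it. In the NSC lists this peak ranked as high as the one at the start of JUN.

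Near the first start of ATF3, an NSC-only region at chr1:212566820-212567421 had −log10 q of 6.81 in NSC1 and 11.3 in NSC2, with summits 1870 and 1858 bp after the start, and so lay outside the 1 kb window. A weaker NSC-only region 3.74 kb before that start had 4.24 and 3.20 (chr1:212561552-212561827). A peak of NSC1 alone, 561 bp beyond the other end of the gene, had 6.99 (chr1:212621338-212621735) and is the only one counted at an ATF3 gene end. Farther out, ESC2 alone had a peak 9.36 kb beyond the gene (4.87, chr1:212630139-212630346) and NSC1 alone had one 44.8 kb beyond it (4.08, chr1:212665556-212665755). An NSC-only region 46.6 kb beyond the gene was stronger, with 19.6 and 20.6, above 93.1% and 94.7% of the lists. It lies at chr1:212667413-212668022, and its nearest protein-coding gene is BATF3, 18395 bp away, which encodes another partner of JUN proteins.

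FOSB encodes a FOS protein known for its stable splice form in stimulated neurons. It lies at chr19:45467996-45475179 on the plus strand and had no peak at either end in any library. The single peak inside the gene was in NSC1, with −log10 q of 5.18, 1338 bp after the start and 228 bp outside the 1 kb window (chr19:45469224-45469447). Within 50 kb it had more peaks than any other member in ESC2 (5), NSC1 (9) and NSC2 (9), and 1 in ESC1, where FOSL1 and JUNB had 2 each. In NSC1 97.9% and in NSC2 98.8% of protein-coding genes had fewer.

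Most FOSB flank peaks lay in or beside other genes. An NSC-only region 12.1 kb before the start lay in no protein-coding gene and had 11.3 in NSC1 and 14.5 in NSC2 (chr19:45455494-45456103). Within ERCC1, a DNA repair gene, a region 44.1 kb upstream had peaks in ESC2 (14.2), NSC1 (12.05) and NSC2 (8.38) at chr19:45423493-45424164, and NSC2 alone had weak peaks whose near edges lay 43.5 and 16.9 kb before the gene (4.07 and 2.60, chr19:45424324-45424542 and chr19:45450812-45451047). A region 10.6 kb downstream of the start lay within 1 kb of TRU-TCA1-1, the gene of a selenocysteine transfer RNA, with peaks in ESC2 (9.21), NSC1 (5.25) and NSC2 (4.51) at chr19:45478407-45478765. NSC1 had a further peak beside it (10.3, chr19:45478967-45479226).

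Farther downstream of FOSB, RTN2, a reticulon gene, had an end region with peaks in ESC2 (14.8), NSC1 (7.37) and NSC2 (4.77) at chr19:45485281-45485625. It also had peaks of NSC1 alone (5.64, chr19:45485743-45486021) and NSC2 alone (6.71, chr19:45496966-45497247). At an end of PPM1N, a phosphatase gene, chr19:45499357-45499665 was ESC-only, with 3.63 in ESC1 and 13.6 in ESC2. Around VASP, which encodes an actin regulator, chr19:45506529-45506958 was NSC-only and weak (4.01 and 2.24), chr19:45507221-45507587 had peaks in ESC2 (6.49) and NSC2 (3.10), and chr19:45523776-45524072 had one in NSC1 (5.60).

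FOSL1 encodes FRA-1, a FOS protein linked to cell motility. It lies at chr11:65892049-65900545, with no promoter sequence printed. At its higher-coordinate end NSC2 alone had a peak, chr11:65900358-65900613, with −log10 q of 2.93, stronger than 18.2% of that list and thus the weakest gene-end peak of the family. The strong sites in its window lay at other genes. A region at an end of FIBP, 3.26 kb from FOSL1, was NSC-only, with 30.4 and 31.9 (chr11:65888092-65888786), above 97.7% and 98.4% of the lists.

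The remaining FOSL1 flank regions clustered around CFL1, which encodes the actin-severing protein cofilin, and MUS81, an endonuclease gene, 31.5 to 33.3 kb from FOSL1. Both chr11:65858996-65859768 (4.63, 10.0, 33.6 and 26.2 in ESC1, ESC2, NSC1 and NSC2) and chr11:65860226-65860589 (3.73, 18.8, 14.9 and 6.96) had peaks in all 4 libraries. The adjoining chr11:65858193-65858777 was NSC-only (13.9 and 9.86). On the other side, 18.5 kb from FOSL1 at the ends of C11orf68 and DRAP1, chr11:65919005-65919436 was NSC-only (13.4 and 6.79).

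**Figure D2:**
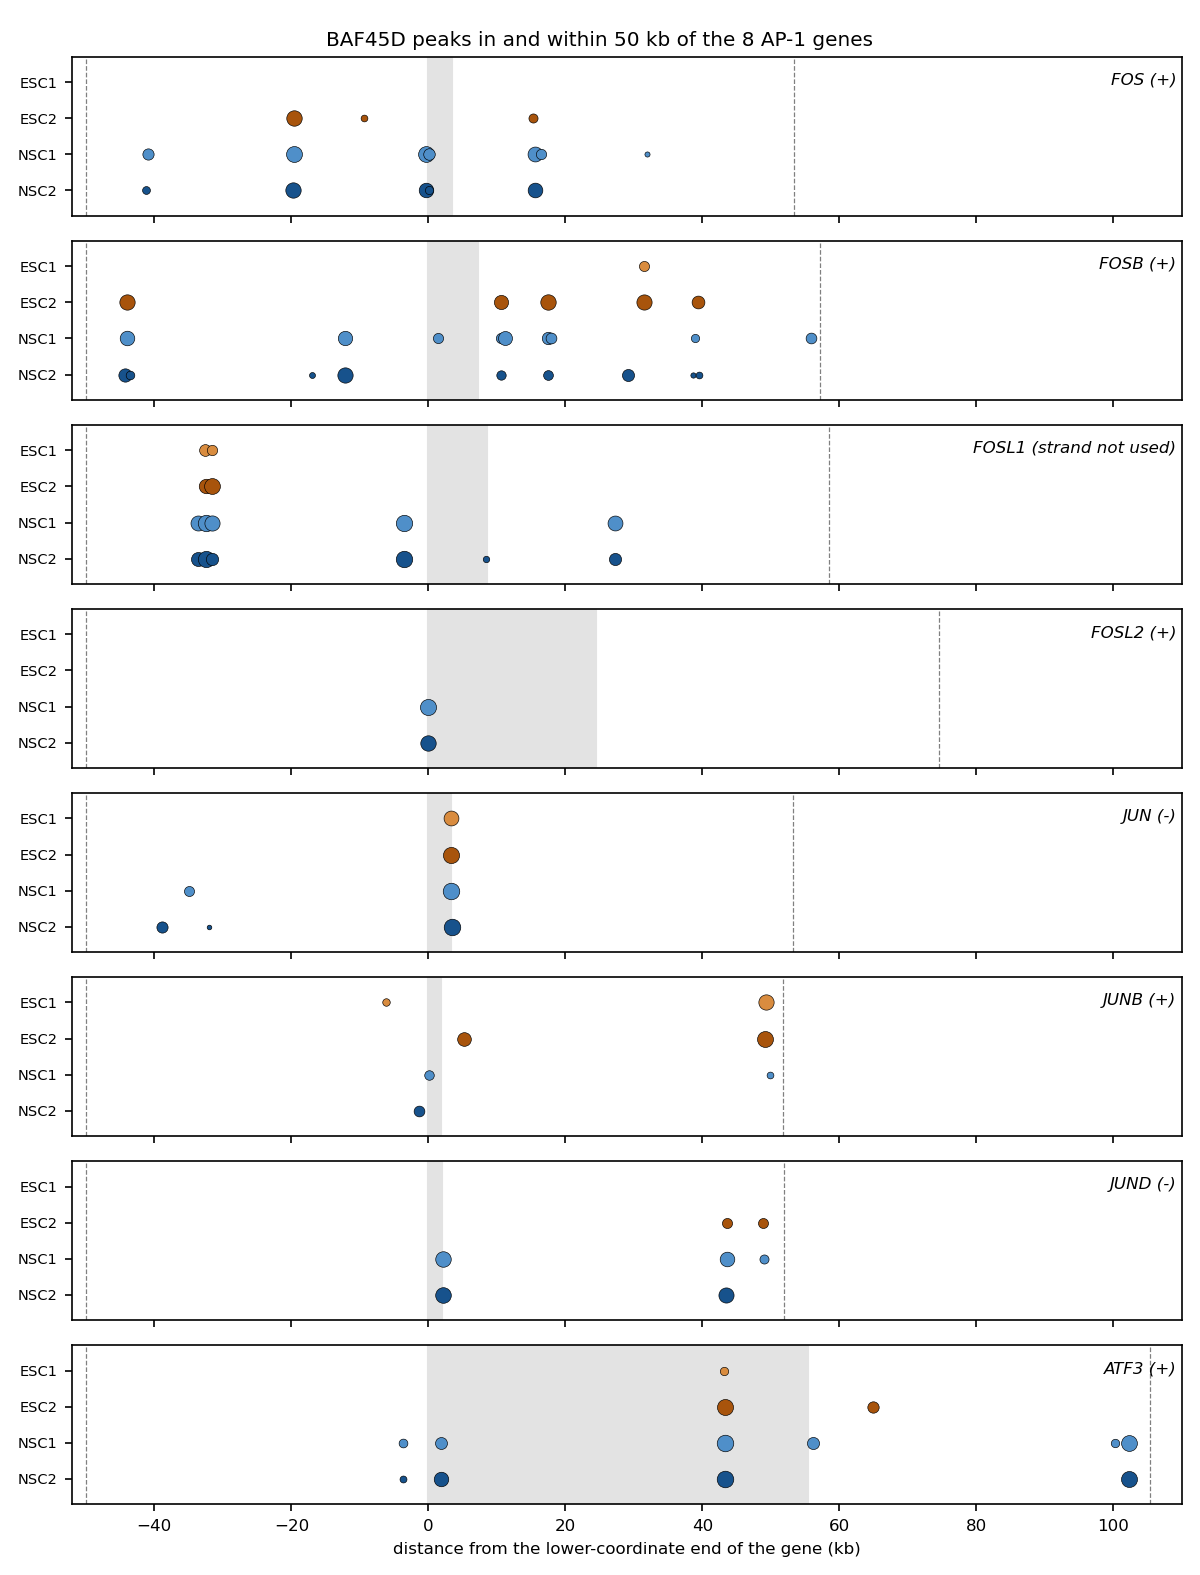
Peaks by library across each AP-1 gene (grey) and 50 kb on either side (dashed lines), by distance in kb from the lower-coordinate end; each point is the strongest summit of a peak and grows with the percent of weaker peaks in its list, and the sign is the strand. FOSL2 has its start peak alone, FOSB has up to 9 peaks in a library, and the ATF3 site inside the gene has a peak in all 4 libraries.

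Across the family, gene-end peaks were found at 1 of 8 genes in each ESC library, 6 in NSC1 and 5 in NSC2. The same rule called 6.67%, 22.8%, 42.8% and 38.1% of all protein-coding genes. At gene ends 3 of 8 members were NSC-only (FOS, FOSL2 and JUND), where 16.2% of all genes were, and 1 was called in all 4 libraries (JUN), where 5.88% were. No member was ESC-only, a class that held 0.245% of all genes. FOSL1, JUNB and ATF3 were called in 1 NSC library each, and FOSB in none. The members were chosen with these calls known, so nothing is read from the gap between their counts and those of all genes.

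With the gene body added to the window, 2, 2, 7 and 6 of 8 members had a peak in ESC1, ESC2, NSC1 and NSC2, against 11.7%, 34.4%, 55.6% and 50.7% of all genes. The additional members were ATF3 in ESC1 and ESC2, FOSB in NSC1 and ATF3 in NSC2. Within 50 kb, 5, 7, 8 and 8 of 8 members had a peak, against 29.2%, 65.6%, 82.2% and 79.1%. FOSL2 was the 1 member with no ESC2 peak in that range.

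**Figure D3:**
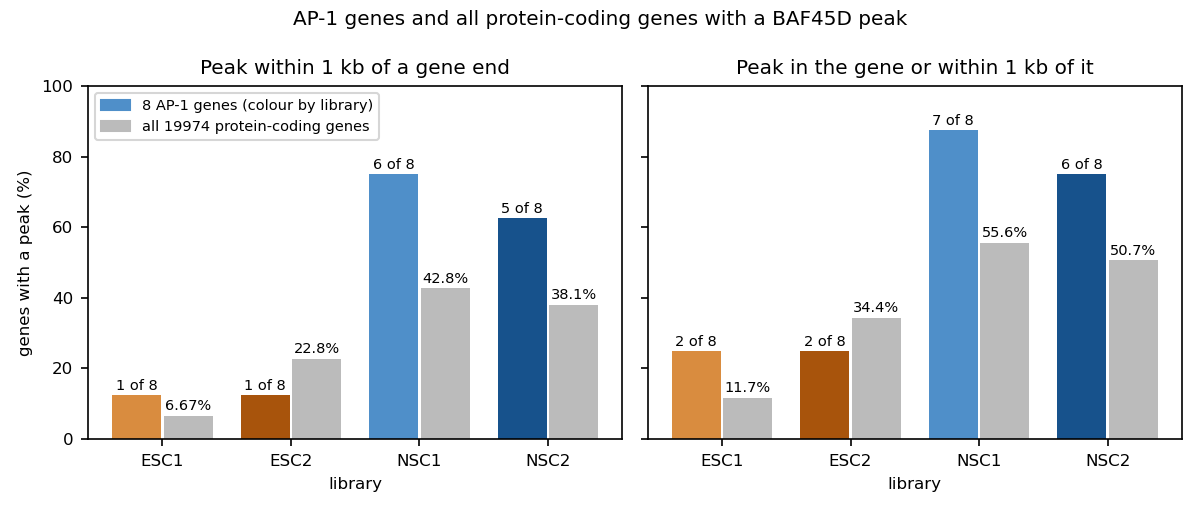
Percent of genes with a BAF45D peak within 1 kb of a gene end (left) or anywhere from 1 kb before the gene to 1 kb past it (right), for the 8 AP-1 genes (coloured, with counts) and for 19974 protein-coding genes (grey), in each library. At gene ends the family goes from 1 of 8 in each ESC library to 6 and 5 of 8 in NSC1 and NSC2, and the grey bars also rise.

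Of the 8 genes, 7 had a RefSeq start in the promoter table. A summit lay within 500 bp of such a start at 1, 1, 5 and 4 of these 7 in ESC1, ESC2, NSC1 and NSC2. For ATF3 only the 2 starts given there were used, so its site inside the gene, found in all libraries, is not counted. Among the 15812 protein-coding genes with a start, 6.34%, 22.0%, 43.4% and 38.5% had one. In NSC1 the genes were FOS, FOSL2, JUN, JUNB and JUND, and in NSC2 the same genes without JUNB.

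The rank of the gene-end peak separated the members. Strong peaks in both NSC lists were found at JUN, FOSL2, JUND and FOS, each above at least 83.2% of its list. Among genes with a gene-end peak, the ranks of the last 3 were lower. In NSC1 and NSC2, FOSL2 stood above 90.3% and 82.0% of them, JUND above 81.7% and 84.5%, and FOS above 85.4% and 72.0%. The peaks at JUNB, FOSL1 and the far end of ATF3 were in 1 library each and above 43.1%, 18.2% and 63.6% of the list. In ESC1 and ESC2 the family's gene-end signal rested on JUN. ATF3 also had a peak in ESC1 and ESC2, inside the gene, which a count of gene ends leaves out.

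**Figure D4:**
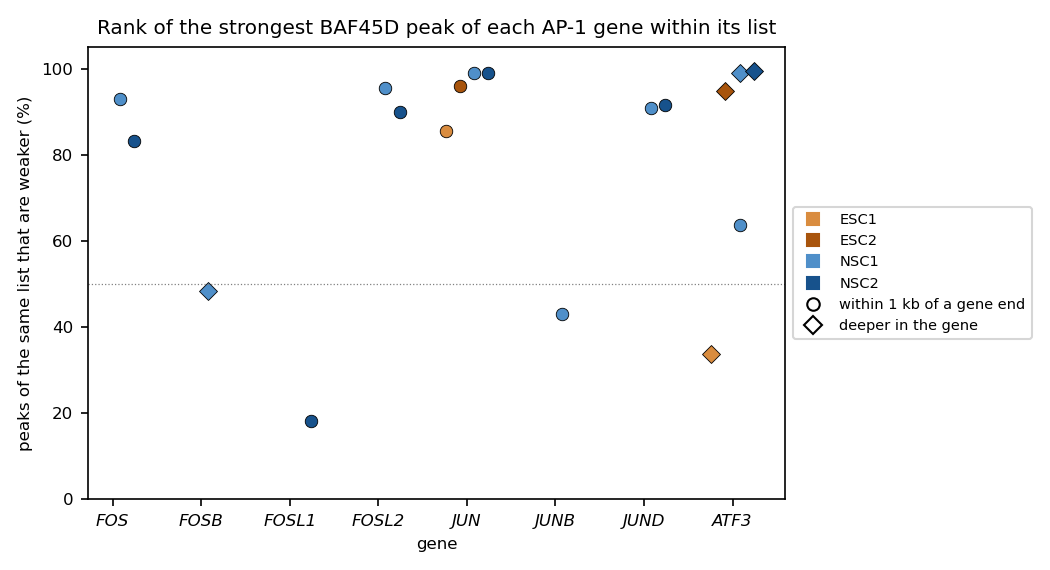
Percent of peaks of the same list that are weaker than the strongest peak of each AP-1 gene, for peaks within 1 kb of a gene end (circles) and deeper in the gene (diamonds), coloured by library. JUN and the ATF3 site inside the gene rank at 98.9% or above in NSC1 and NSC2, and FOSL1 and JUNB lie below 50%.

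When overlapping peaks were merged, 49 regions lay in or within 50 kb of the 8 genes. Of these, 13 were NSC-only (26.5%, 95% Wilson interval 16.2 to 40.3, counting error only), against 30.6% of all 44534 merged regions. Another 2 were ESC-only, against 1.65%, and 4 were found in all libraries, against 3.27%. The other 30 had mixed patterns: 11 were in NSC1 alone, 7 in NSC2 alone, 3 in ESC2 alone and 1 in ESC1 alone, 6 were in ESC2 with both NSC libraries, and 1 each in ESC2 with NSC1 and ESC2 with NSC2. Of the 23 regions that NSC1 and NSC2 shared, 10 also had an ESC peak, against 23.3% of 17793 such regions genome-wide. The 8 regions at member gene ends included 4 that were NSC-only and 1 found in all 4 libraries, and the other 3 were in 1 NSC library.

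The promoter letters were compared with those of all 34961 promoter entries of 300 bases (250 before and 50 after a start, both strands searched). Of these entries, 22132 belong to protein-coding genes, as all members do, and motif shares over those alone were not computed. The members had 8 entries, since ATF3 has 2, neither of which lies at its site inside the gene. A GC box stood in 6 of 8 entries, against 45.0% of all, and a CCAAT box in 4 of 8, against 34.6%. The full element TGACGTCA stood only at JUND, 200 bp before the start, among the members (1.85% of all entries). The JUND summits in NSC1 and NSC2 lay 34 and 14 bp from it. The shorter TGACGT, which is part of TGACGTCA, stood at FOS (64 bp before the start), FOSB (60 bp), FOSL2 (66 bp) and JUND, 4 of 8 entries against 7.97%. TGACATCA stood at JUN, 67 bp before the start, and at the first start of ATF3, 123 bp before it, 2 of 8 against 2.61%. The JUN summits lay 35, 16, 27 and 123 bp from it in ESC1, ESC2, NSC1 and NSC2.

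The AP-1 site TGANTCA was found at 1 of the 8 entries, against 7.68% of all. It lay at FOSL2, with its first base at position 5 from the start, where the letters are ccattgtagTGACTCAtctcgggca, and the NSC summits lay 46 and 38 bp from it. No member entry held a CArG box, the serum response element, against 1.30% of all. The entries reach only 250 bases before a start. The upstream FOS summits lay 340 bp before the start in NSC1 and 324 bp in NSC2, outside the bases searched. Whether FOS has a CArG box there was not examined. TGACGT and TGACATCA were searched after the sequences had been seen. Such matches describe letters in the window. FOSB, with no gene-end peak, held TGACGT and 2 GC boxes as well.

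In base composition, the 250 bases before the start were 62% G and C at JUN, 64.8% at FOS, 65.6% at FOSB, 69.6% at FOSL2, 70.8% at JUNB and 74.8% at JUND. They were 49.2% and 44.8% at the ATF3 starts used. No peak reached either ATF3 window, and the bases at its site inside the gene were not measured. The median over 22132 entries of protein-coding genes was 62%. Entries with NSC-only summits within 500 bp had a median of 69.2%, those called in all 4 libraries 61.2% and those with none 58.4%. FOSB again lay among the members with a start peak in this measure.

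Other genes of the pathway were counted at gene ends with the same rule, by which 6.67%, 22.8%, 42.8% and 38.1% of all genes were called and 16.2% were NSC-only. No test was made on these lists, and CREB1 stands in 2 of them. Of 16 further leucine zipper partners, 3, 7, 10 and 11 were called in ESC1, ESC2, NSC1 and NSC2. ATF2 (−log10 q 11.1, 28.1, 40.3 and 33.9) and ATF7 (7.65, 36.9, 46.8 and 32.2), both partners of JUN, and NRL, a retinal factor (4.72, 12.4, 19.5 and 18.7), were called in all 4. CREM, a cyclic AMP response factor (17.2 and 11.8 in NSC1 and NSC2), MAF (2.53 and 7.81) and MAFF (12.6 and 5.35) were NSC-only.

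Of 12 kinases upstream of AP-1, 1, 2, 8 and 8 were called, with 5 NSC-only. MAPK14, the p38α kinase, was called in all 4 libraries (10.8, 56.5, 41.2 and 31.0). MAP2K7 (9.51 and 8.67 in NSC1 and NSC2) and MAP2K4 (6.95 and 2.54), which activate the JUN kinases, MAPK8, a JUN kinase itself (6.55 and 3.71), and MAP2K1 of the ERK pathway (13.1 and 4.58) were NSC-only. Of 9 serum response and CREB regulators of FOS, 1, 6, 6 and 6 were called and 0 were NSC-only. SRF, the serum response factor, was called in all 4 libraries (2.97, 6.96, 15.8 and 8.56).

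Other immediate early genes had both kinds of pattern. Of 22 genes, 1, 5, 12 and 12 were called in ESC1, ESC2, NSC1 and NSC2, with 6 NSC-only and 9 with no gene-end peak. KLF6, a zinc finger factor (17.7 and 11.98 in NSC1 and NSC2), DUSP1, a MAP kinase phosphatase (9.18 and 13.3), NR4A3, an orphan nuclear receptor (7.58 and 8.35), and BTG2, an antiproliferative gene (6.88 and 5.62), were NSC-only. DUSP6, the ERK phosphatase, was called in all 4 libraries (2.01, 20.5, 25.5 and 14.7). Of 11 known AP-1 targets, 0, 1, 3 and 2 were called. VIM, which encodes vimentin (21.0 and 10.4 in NSC1 and NSC2), was NSC-only, and 7 had no gene-end peak. VIM is also one of the neural markers counted next.

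Peaks do not measure expression, so the labels were checked only by where peaks lay at marker genes. The same rule called 6.67%, 22.8%, 42.8% and 38.1% of all genes in ESC1, ESC2, NSC1 and NSC2. A higher count in NSC therefore does not by itself identify a cell type. Of 6 neural stem cell markers, 1, 1, 5 and 5 had a gene-end peak in ESC1, ESC2, NSC1 and NSC2, and of 5 spinal cord markers 0, 0, 3 and 3 did. Of 6 pluripotency markers, 3, 4, 2 and 2 did, with none at POU5F1 or NANOG in any library, and of 4 fibroblast markers 0, 0, 1 and 2. SOX2, called in all 4 libraries, stands in both the neural and the pluripotency list and is the 1 neural marker called in ESC.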

How the data were processed

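CUT&Tag of BAF45D was read from 4 peak lists, 1 per library. The submitters' processing notes name BWA 0.7.12, Trimmomatic, FastQC and the hg38 build. MACS2 2.1.0.20150420 called peaks per library without a control, at q 0.05, shift -100 and extension 200, keeping every duplicate left in an input whose name is marked dedup, per the file headers. The pileup signal, the −log10 p and q values and the fold enrichment ratio are the authors' deposited values, each relative to its own library. Depth cannot be recovered for places without a peak.

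Entries with the same start and end were joined (strongest −log10 q kept), on chromosomes 1 to 22 and X, with Python 3.11.15 and pandas 2.3.3. A peak touched a window at an overlap of 1 bp. Gene positions, starts and promoter sequences are RefSeq GRCh38.p14, and 7 of 8 members had a start. Overlap and merging were tested on simulated intervals. The members, lists and motifs were chosen with earlier results of these data known. The text names all 8 members, genes at flank peaks, up to 4 genes per class of each related list (highest mean rank) and the 2 genes most alike, with some items not reported here. Alternatives were other windows, stricter or equal lists, another merging rule and leaving out each library. No test was made.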

Additional observations from a re-analysis of the deposited data

How the results depend on the processing

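JUN stayed the 1 member with a gene-end peak in all libraries, and FOS, FOSL2 and JUND stayed NSC-only, under each alternative run. By the class definitions, leaving out a library or changing the flank or merging rule could not take these genes out of their class. Only stricter or equal lists, a strongest summit inside the window and other gene-end windows could. At equal list length (the strongest 4204 peaks of each list), where 2.2% of all genes are NSC-only, the same 3 members are. With gene-end windows of 2.5 kb, 5 members are NSC-only, as JUNB and ATF3 join (17.1% of all genes). The NSC peaks of JUNB do not overlap, and the ATF3 site inside the gene, with a peak in every library, lies outside these windows. Leaving out 1 library in turn gives 3 to 5 NSC-only members, with FOSL1 added without NSC1, and JUNB and ATF3 without NSC2. The share of all genes that are NSC-only moves with it, from 16.2% with all libraries to 16.2%, 28.6%, 19.1% and 22.9% without ESC1, ESC2, NSC1 and NSC2. Leaving 1 out also gives 13 to 24 NSC-only regions (20 without NSC1, 24 without NSC2), 2 to 5 ESC-only regions (5 without ESC1) and 4 to 10 regions in all libraries used (10 without ESC1). At −log10 q of at least 5, ESC1 has 1 member with a peak in the gene or at its ends, 2 peaks lie near members in ESC1 and 20 in NSC2, and 1 region is ESC-only and 1 in all libraries. At equal list length ESC1 has 7 peaks near members, and ESC2, NSC1 and NSC2 have 12 each. The full lists hold 7, 17, 35 and 31 in ESC1, ESC2, NSC1 and NSC2. At equal list length 5 regions are NSC-only. Flanks of 25 kb hold 4, 10, 21 and 19 peaks in ESC1, ESC2, NSC1 and NSC2, with 1 ESC-only region and 2 in all libraries. Flanks of 100 kb hold 12, 33 and 56 in ESC1, ESC2 and NSC1, with 7 regions in all libraries. Apart from the classes at gene ends, shares over all genes or regions were not computed under these settings. Nothing about the members is therefore read from these changes in peak and region counts. Of 108 alternative values, 84 were within 1.5 times the value given. No paired analysis was possible because no test was made and the labels tie no ESC library to an NSC library beyond a shared number. The ESC libraries had more tags and fewer peaks than the NSC libraries, and the part of this in the NSC-only calls was not tested.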

Other observations

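For the members called in at least 2 libraries, the genes most alike were those with the same 4-library pattern at gene ends and the smallest summed difference in rank within the lists, over 4 libraries. JUN shared its pattern with 1173 genes. The nearest were TIMM44, a mitochondrial import gene (−log10 q 10.3, 22.2, 38.5 and 38.6 in ESC1, ESC2, NSC1 and NSC2), and AKT1S1, which encodes a regulator of mTORC1 (10.4, 21.5, 36.2 and 39.8). FOS, FOSL2 and JUND shared theirs with 3229 genes. Nearest to FOS were ARHGEF1 (19.0 and 11.1 in NSC1 and NSC2) and MNT, a partner of MAX (18.3 and 11.2). HDAC4, a histone deacetylase gene (22.1 and 15.1), and BTBD7 (24.4 and 14.9) were nearest to FOSL2. MLLT10 (16.8 and 16.9) and HOXB3, a homeobox gene (16.5 and 16.3), were nearest to JUND.

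Of the 22 immediate early genes outside the family, 4 had gene-end peaks in ESC2, NSC1 and NSC2 and none in ESC1. Of all genes, 18.3% were called in ESC2, NSC1 and NSC2 whether or not ESC1 had a peak, and 5.88% were called in all libraries. The pattern was picked after the values were seen, so nothing is read from its count. CCN2, a matricellular gene, had 3.73 in ESC2, 30.6 in NSC1 and 25.1 in NSC2. EGR1, a zinc finger factor, had 5.64, 23.9 and 21.3. CCN1 had 9.11, 13.2 and 21.1, and MYC had 4.39, 12.7 and 9.32.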
